A study of Arabidopsis thaliana with 2 samples.

Results

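The genes described here are 31 loci of Arabidopsis thaliana that belong to the DUF784 family, a group of short cysteine-rich proteins with a predicted secretion signal. The list of loci was chosen by family annotation, tandem position and near-identity, with the FPKM values of both libraries known, so the levels and ratios below are a description and carry no test. All 31 had a row among the 33557 identifiers with a value, and the reference annotation holds 53 DUF784 loci in all, of which 22 are outside the list. RNA was sequenced from mature ovules of 2 genotypes, with 1 library each. The library labelled wild-type came from ovules of ms1 plants, a male-sterile line used in place of true wild-type, and these ovules had not been pollinated. The other library came from ovules of myb98, a mutant of the MYB transcription factor gene MYB98. The labels give both the same handling, in which flowers at floral stage 12 were emasculated and ovules of about 50 pistils were taken by hand 36 h later. The labels state neither the accession background nor the myb98 allele, and an effect of background or of ms1 itself cannot be told apart from that of myb98. With 1 library per genotype no replicate error can be given.

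Each Arabidopsis ovule holds an embryo sac with an egg cell, a central cell and a pair of synergids, the cells that attract and receive the pollen tube. MYB98 is known as a synergid transcription factor that is needed for the filiform apparatus and for pollen tube guidance, and it binds DNA sites with the core TAAC. DUF784 proteins are ECA1-type cysteine-rich proteins, and several, such as DD11 and DD18, were named as genes whose transcripts were lower in ovules without an embryo sac.

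The tissue and genotype labels were set against marker genes. Ovule and integument genes were present in both libraries, with STK, an ovule identity MADS-box gene, at 106 FPKM in wild-type and 123 FPKM in myb98. FPKM is a read density scaled to transcript length and library size. The 5 EC1 genes, which encode proteins that the egg cell secretes to activate sperm, summed to 222 and 259 FPKM. Of 4 pollen genes 1 reached 1 FPKM, ANX1, at 1.28 FPKM in wild-type and 1.26 in myb98. MYB98 itself was low, at 1.35 FPKM in wild-type and 0.474 FPKM in myb98. Of 7 synergid genes 2 were over 4-fold lower in myb98, namely the DUF784 gene DD11, from 70.2 to 0.956 FPKM, and LURE1.2, which encodes a pollen tube attractant, from 191 FPKM to a listed 0. FER, a widely expressed receptor kinase of pollen tube reception, was at 43.9 FPKM in wild-type and 42.7 in myb98. VDD, a transcription factor gene of synergid differentiation, was at 18.9 and 19.2 FPKM. ANNAT8, an annexin gene, was at 4.80 FPKM in wild-type and 1.68 in myb98, and LRE, which encodes a membrane-anchored partner of FER, at 0.769 and 1.36 FPKM. The 6 central cell genes, of which 5 reached 1 FPKM, summed to 13.9 FPKM in wild-type and 9.15 in myb98. Of these DME, a DNA demethylase gene, was at 8.61 and 3.85 FPKM. The others differed less, with FWA at 1.67 FPKM in wild-type and 1.36 in myb98, FIS2 at 1.21 and 1.13, and AGL61 at 0.389 and 0.338. MEA and AGL80 were higher in myb98, at 0.852 and 1.18 FPKM and at 1.18 and 1.29 FPKM. The part of these differences in the results below was not tested. In bulk ovules, fewer cells of a type and less RNA per cell cannot be told apart.

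**Figure D1:**
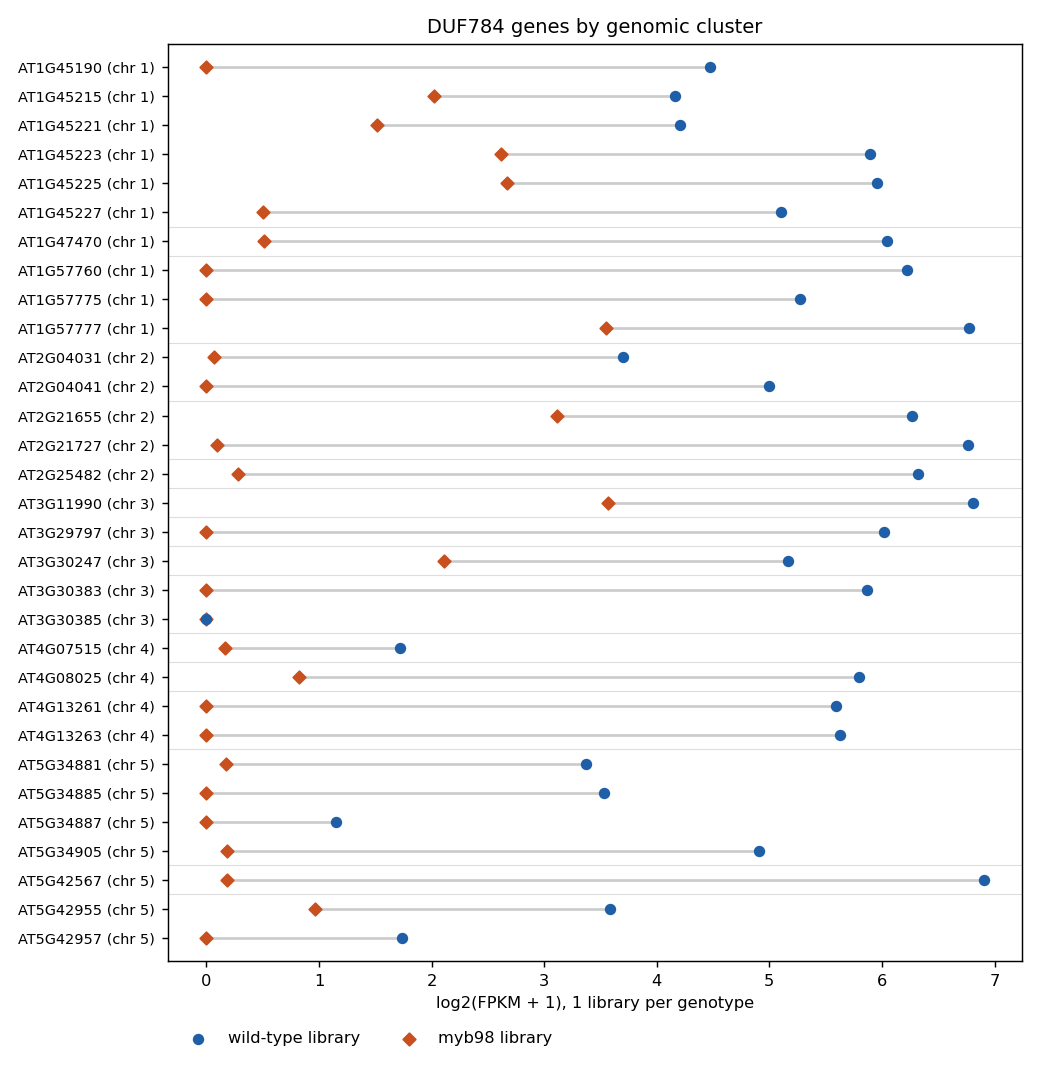
Level of each of the 31 DUF784 genes as log2(FPKM + 1) on the x axis, with the wild-type library as circles and the myb98 library as diamonds. Genes are ordered along the chromosomes and thin lines separate genomic clusters. The myb98 level was the lower one in 30 genes, and AT3G30385 was listed at 0 in both libraries.

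In unpollinated ovules of the wild-type library, 30 of the 31 genes reached 1 FPKM. Their levels ran up to 119 FPKM in AT5G42567, and 13 genes were at 50 FPKM or more. The median of the 31 was 37.6 FPKM, beside 6.57 FPKM for all 16303 genes that reached 1 FPKM in either library, and 20 of the 31 stood in the top 10% of those genes. In the myb98 library all 30 were lower. Together the 31 genes held 1399.7 FPKM in wild-type and 51.3 FPKM in myb98, so 3.67% of their summed level was left. As a share of all FPKM, the genes fell from 0.5002% to 0.0189%.

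A gene was said to have fallen or risen when log2((myb98 + 1)/(wild-type + 1)) was at least 2 in size, which is a 4-fold difference on that scale. This pseudocount makes the fold smaller than the raw ratio in genes of low level. By this rule 27 of the 30 genes fell and 0 rose. Over all expressed genes the same rule called 0.712% lower and 0.282% higher. Since the list was drawn up with this contrast known, nothing is read from the comparison of those shares. The median log2 ratio of the 30 genes was -4.05, with a range from -6.72 to -1.15, beside -0.00 for all expressed genes. Short transcripts read higher in the myb98 library. For each of the 30, the 200 other expressed genes nearest in transcript length and on the same side of 10 FPKM had a median of 0.35 to 0.59. The 3 genes that did not reach the rule were low already in wild-type. AT4G07515 went from 2.30 to 0.122 FPKM, AT5G34887 from 1.22 to a listed 0 and AT5G42957 from 2.34 to a listed 0. The gene nearest the threshold on the inside was AT1G45215 with a log2 ratio of -2.13, and the nearest on the outside was AT5G42957 with -1.74.

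**Figure D2:**
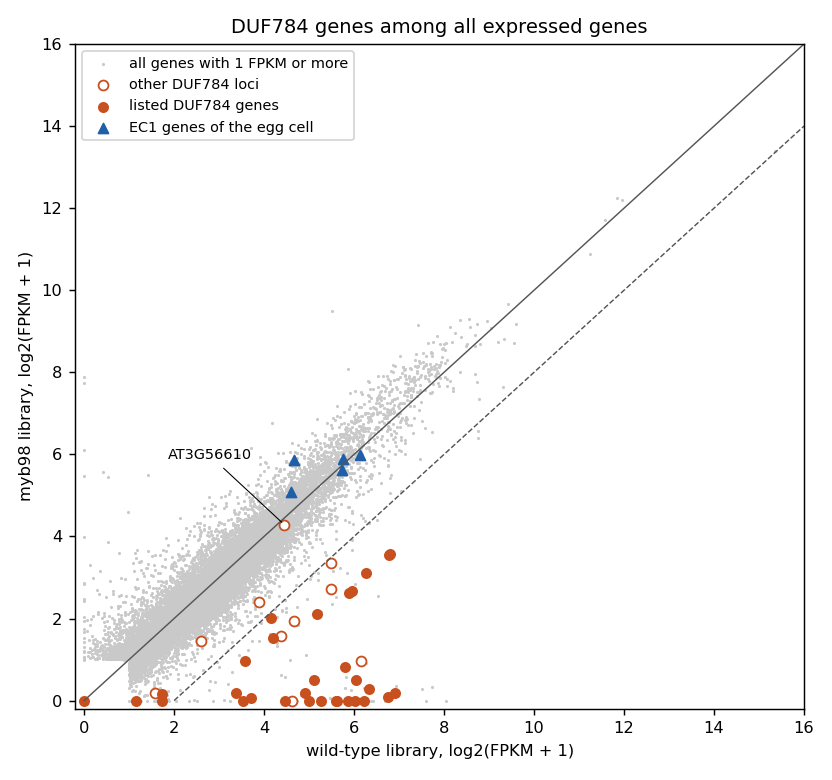
Level in myb98 against level in wild-type, both as log2(FPKM + 1), for all genes that reached 1 FPKM in either library. Listed DUF784 genes are filled circles, other DUF784 loci open circles and the EC1 genes of the egg cell triangles; the solid line marks equal levels and the dashed line a 4-fold lower level. 27 listed genes lie below the dashed line, and AT3G56610 lies close to the line of equal levels.

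The 29 protein-coding genes of the list fall into 3 protein forms, which differ in length and in the spacing of their cysteines. Spacings below count the residues between neighbouring cysteines, after residue 30 of the precursor. The coding stretch from the first to the last such cysteine is printed for 1 gene of each form and for AT3G56610, the DUF784 locus whose level differed least between the libraries among those at 10 FPKM or more. Codons of cysteine are in capitals, and coordinates refer to TAIR10.1, whose chromosomes were used for sequence only.
AT5G42567, shorter form, chr5:17018083-17018292, minus strand: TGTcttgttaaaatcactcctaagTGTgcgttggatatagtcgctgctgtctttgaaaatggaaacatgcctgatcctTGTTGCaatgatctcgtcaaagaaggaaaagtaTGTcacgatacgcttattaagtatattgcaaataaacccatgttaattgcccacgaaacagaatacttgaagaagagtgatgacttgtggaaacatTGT
AT1G47470, longer form with 18 residues before the pair, chr1:17414662-17414874, minus strand: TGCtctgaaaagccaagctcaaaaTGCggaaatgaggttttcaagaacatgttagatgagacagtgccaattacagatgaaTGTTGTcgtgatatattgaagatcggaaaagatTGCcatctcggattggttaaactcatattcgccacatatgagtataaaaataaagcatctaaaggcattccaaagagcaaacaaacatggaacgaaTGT
AT2G21727, longer form with 17 residues before the pair, chr2:9278612-9278836, minus strand: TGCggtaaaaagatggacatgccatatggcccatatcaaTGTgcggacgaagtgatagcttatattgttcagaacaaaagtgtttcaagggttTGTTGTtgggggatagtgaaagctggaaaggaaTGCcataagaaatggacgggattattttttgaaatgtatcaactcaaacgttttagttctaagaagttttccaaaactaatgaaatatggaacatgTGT
AT3G56610, not in the list, chr3:20971710-20971940, minus strand: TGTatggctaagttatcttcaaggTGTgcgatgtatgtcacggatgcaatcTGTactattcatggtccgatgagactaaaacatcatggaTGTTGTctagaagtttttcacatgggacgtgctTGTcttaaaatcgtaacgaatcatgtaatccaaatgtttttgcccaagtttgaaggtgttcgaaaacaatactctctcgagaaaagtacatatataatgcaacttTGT
In the first 3 of these, a cysteine pair with no residue between is followed after 9 residues by another cysteine and after 31 more by the last. The stretch of AT3G56610 holds the pair and the following 9 residues too, but its spacing runs 7, 8, 12, 0, 9 and 34.

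The shorter form has 17 genes, with precursors of 103 to 126 residues, of which 14 have exactly 115. Its full spacing of 7, 17, 0, 9 and 31 residues was found in 15 of 17 genes. AT3G30383 lacks 1 cysteine of the adjacent pair. AT4G07515, the shortest precursor, has the first of the series at residue 27, before the region counted. The longer form with 18 residues before the pair has 7 genes of 149 to 173 residues. The longer form with 17 residues before the pair has 5 genes of 151 to 158 residues. Over all 29 proteins, 28 had 17 or 18 residues, the adjacent pair and then 9 residues. The most hydrophobic window of 11 residues lay within residues 2 to 22 in all 29, the place of a signal peptide in secreted proteins, with a mean Kyte-Doolittle hydropathy of 2.49 to 3.62.

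**Figure D3:**
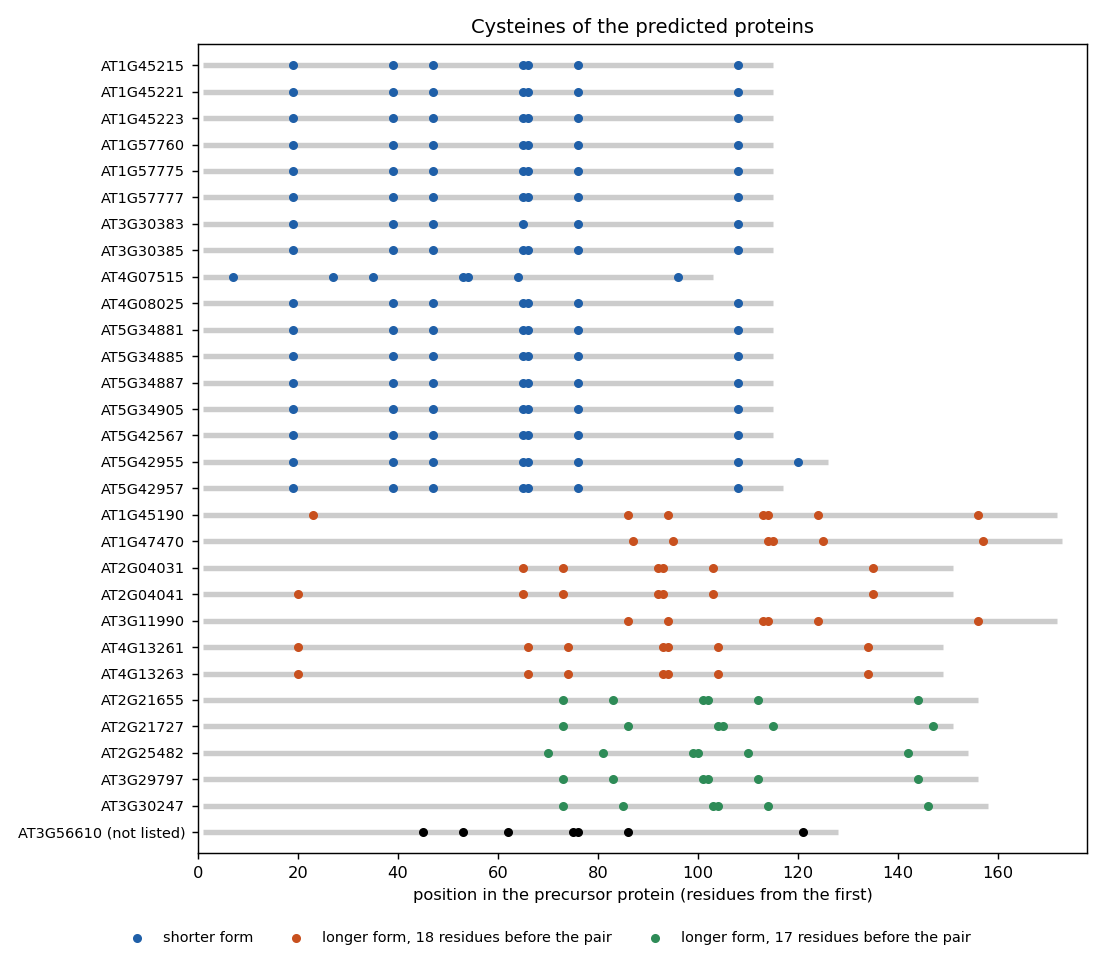
Position of each cysteine (dots) along the predicted precursor proteins (grey bars, residues from the first) of the 29 protein-coding genes, coloured by form, and of AT3G56610 in black. The shorter form has its cysteines at nearly the same positions in all genes but AT4G07515, and in both longer forms the cluster of cysteines begins farther from the first residue.

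Proteins of the shorter form shared a median of 73.4% of residues with each other, and 21.6% with the longer forms. Within the shorter form there were 2 subgroups. The 8 genes on chromosomes 1 and 4 were 88.7% to 99.1% identical among themselves, the 9 genes on chromosomes 3 and 5 were 87.0% to 98.3% identical, and between the subgroups identity was 66.1% to 75.7%. The longer forms shared a median of 25.5% of residues with each other.

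All 3 forms were lower in myb98 in sum. The shorter form went from 609 to 23.0 FPKM, which left 3.78%. The form with 18 residues before the pair went from 336 to 11.3 FPKM, which left 3.38%, and that with 17 residues from 361 to 11.2 FPKM, which left 3.11%. By the rule of size 13 of 16 expressed genes of the shorter form fell, 7 of 7 of the first longer form and 5 of 5 of the second. The subgroups of the shorter form differed more, with 5.86% of 369 FPKM left for the genes on chromosomes 1 and 4 and 0.564% of 240 FPKM for those on chromosomes 3 and 5. No replicate error stands behind any of these shares.

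The longer form with 18 residues before the pair includes DD18. This gene, AT1G45190, went from 21.2 FPKM to a listed 0. Its closest relative AT3G11990, on another chromosome and 93.7% identical in transcript, went from 111 to 10.9 FPKM and so kept 9.80%. By their listed values these 2 near relatives differed both in wild-type level and in what was left. How reads that fit both were divided is not given. AT1G47470 went from 64.9 to 0.422 FPKM, a 154-fold lower level. AT2G04041 went from 31.0 FPKM to a listed 0. AT2G04031 in the same cluster went from 12.0 to 0.0493 FPKM. Between them lies AT2G04037, a DUF784 locus outside the list, which kept 9.95%. The neighbouring pair AT4G13261 and AT4G13263, 95.3% identical in transcript, went from 47.1 and 48.5 FPKM to a listed 0 in both.

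The longer form with 17 residues before the pair was the highest of the 3 forms in wild-type by its median, 75.9 FPKM. The median was 47.1 FPKM for the other longer form and 17.5 FPKM for the shorter form. Medians depend on how reads were divided between near-identical copies, and by sum the shorter form, with 17 genes, was the highest at 609 FPKM. AT2G21727 went from 107 to 0.0671 FPKM, where the wild-type value stood for at most about 2674 fragments and the myb98 value for at most about 1.46. AT2G25482 went from 79.1 to 0.215 FPKM, a 368-fold lower level that rests on at most about 5.05 fragments in myb98. AT3G29797 went from 63.9 FPKM to a listed 0. These 3 genes were nearly or wholly without signal in myb98. The other two of this form kept a measurable level. AT2G21655 went from 75.9 to 7.64 FPKM and AT3G30247 from 34.9 to 3.30 FPKM. AT2G21655 and AT3G29797 are 91.5% identical in transcript, yet one kept 10.1% and the other was listed at 0.

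In the shorter form, the subgroup on chromosomes 1 and 4 held the gene with the largest share left. AT1G45215 was at 16.8 FPKM in wild-type and 3.07 in myb98, or 18.2%, the largest share of single genes. It is 99.8% identical in transcript to AT1G45221. Summed with its near-identical listed copies, the group went from 187 to 15.9 FPKM and kept 8.46%. AT1G45221 went from 17.5 to 1.86 FPKM and AT1G45223 from 58.6 to 5.14 FPKM. All 3 lie in 1 tandem row. AT1G57760 went from 73.6 FPKM to a listed 0 and AT1G57775 from 37.6 FPKM to a listed 0. AT1G57777, which is 95.9% identical in transcript to AT1G57775 and lies next to it, went from 108 to 10.7 FPKM. By listed values AT1G57777 alone of that cluster kept a measurable level, which depends on how reads shared with AT1G57775 were divided. AT4G08025 went from 54.4 to 0.764 FPKM.

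In the subgroup on chromosomes 3 and 5, AT5G42567 was the highest gene of the list in wild-type and went from 119 to 0.134 FPKM, the latter at most about 2.44 fragments. AT3G30383 went from 57.4 FPKM to a listed 0. AT3G30385, 97.3% identical to it in transcript, was listed at 0 in both libraries. Its transcript is 100% identical to that of AT3G30387, a DUF784 locus outside the list that was also listed at 0 in both. A listed 0 for either of these copies therefore need not mean that it was silent. How reads shared by near-identical copies were divided is not given in the sources used here, so the split of a level between such copies is uncertain. AT5G34905 went from 29.0 to 0.132 FPKM, AT5G34881 from 9.36 to 0.131 FPKM and AT5G34885 from 10.6 FPKM to a listed 0. AT5G42955 went from 10.99 to 0.953 FPKM and kept 8.67%. It was the only gene of this subgroup above 2% of its wild-type level.

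Both listed pseudogenes were transcribed in wild-type ovules. AT1G45225 went from 61.0 to 5.37 FPKM and AT1G45227 from 33.4 to 0.421 FPKM. AT1G45225 and the coding gene AT1G45223 beside it, 96.6% identical in transcript, kept 8.80% and 8.77%. AT1G45227 is 95.5% identical in transcript to AT1G45223. The division of shared reads is not given, so transcription of either pseudogene cannot be told apart from reads of such coding copies.

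What was left in myb98 was not spread evenly over the list. Of the 30 expressed genes, 11 were listed at 0 and 9 were at 0.0625% to 1.404% of wild-type. A further 8 were at 8.67% to 10.7%, while 1 gene was between, at 5.33%, and 1 above, at 18.2%. These shares depend on how reads were divided between near-identical copies. With listed copies of 95% or more identity summed, 6 of 20 groups were listed at 0 and 7 were at 0.0625% to 1.404%. Another 3 were at 5.33% to 7.33% and 4 at 8.46% to 10.1%. Copies outside the list were left out of these sums, such as AT1G45211, 97.3% identical in transcript to AT1G45223. Of the genes above 0 in myb98, 6 had at most 3 fragments there, whereas 27 genes had 200 or more in wild-type by the same upper estimate.

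**Figure D4:**
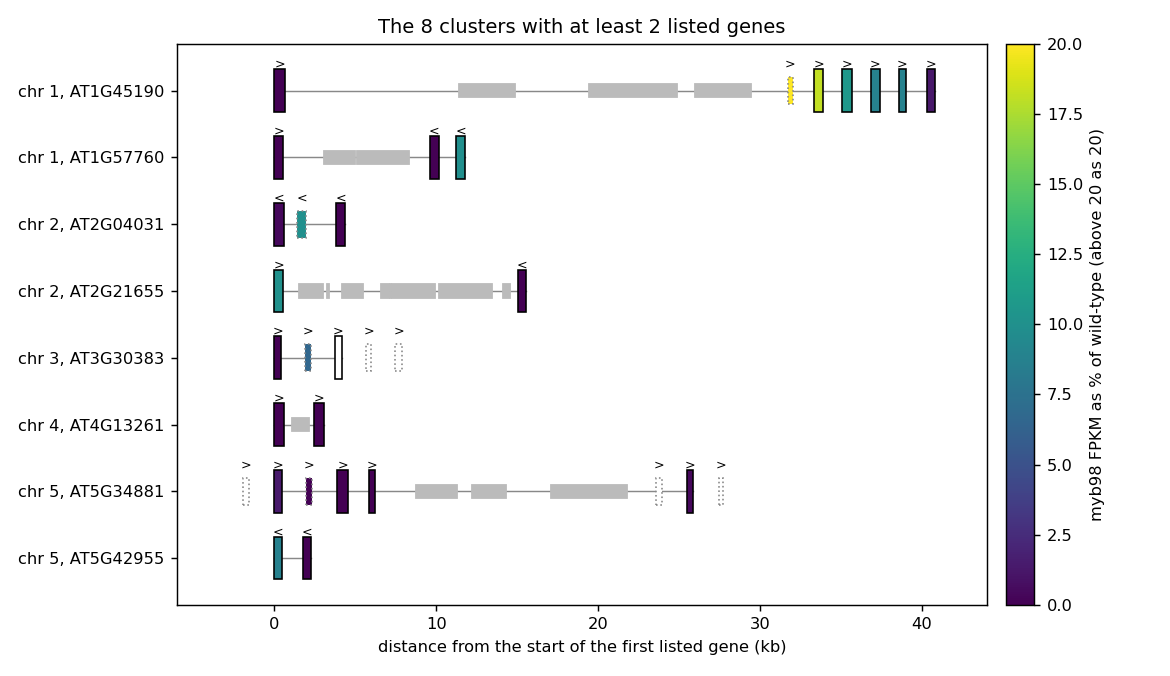
The 8 clusters with at least 2 listed genes, drawn to scale as distance in kb from the start of the first listed gene. Boxes with solid outline are listed genes, smaller boxes with dotted outline other DUF784 loci, grey boxes other genes, and > or < the direction of transcription; colour gives the myb98 level as a percent of wild-type and white marks genes at 0 in wild-type. Most boxes are at the dark end of the scale, and the row that starts with AT1G45190 holds the genes with the largest shares left.

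The 31 genes lie at 16 locations when listed genes within 50 kb of each other are joined. Of the 31, 23 lie in 8 clusters and 8 have no other listed gene that near. Among these 8, AT1G47470, AT4G08025 and AT5G42567 each have a DUF784 locus outside the list within 50 kb. The listed genes were found on both strands, 19 on the plus and 12 on the minus strand, and 30 of 31 have a single exon. The largest cluster, chr1:17104351-17145134, holds 6 genes and went from 209 to 15.9 FPKM, so 7.60% was left. The cluster at chr1:21390003-21401798 has 3 genes and went from 219 to 10.7 FPKM, all of the latter listed for AT1G57777. The 4 genes at chr5:13197604-13223493 went together from 50.2 to 0.263 FPKM. Of the clusters of 2 genes, chr2:9263537-9279080 went from 183 to 7.71 FPKM and chr4:7708572-7711620 from 95.6 FPKM to a listed 0. The pair at chr3:11984594-11988767 went from 57.4 FPKM to a listed 0, that at chr2:1304160-1308544 from 43.0 to 0.0493 FPKM, and that at chr5:17231842-17234132 from 13.3 to 0.953 FPKM. These sums hold listed genes alone, and DUF784 loci outside the list lie among or near them. With AT2G04037 included, the location at chr2:1304160-1308544 went from 62.9 to 2.02 FPKM, so that 3.22% was left in place of 0.115%. With AT1G47450 included, the location of AT1G47470 went from 108.7 to 9.68 FPKM, so that 8.91% was left in place of 0.650%. Either way each location was lower in myb98. Coordinates are those of the reference annotation on TAIR10.1.

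Genes of other families lie among and beside the DUF784 genes. Within 10 kb there are 106 such genes, of which 38 were expressed, 0 fell and 1 rose, where 0.712% of all expressed genes fell and 0.282% rose, with a median log2 ratio of 0.09 and a lowest of -0.91. The gene that rose, AT2G21660 or GRP7, encodes a clock-regulated RNA-binding protein, lies between AT2G21655 and AT2G21727 and went from 44.5 to 719 FPKM. The egg cell genes EC1.2 and EC1.3 lie beside AT2G21727. EC1.2 was at 23.3 FPKM in wild-type and 33.0 in myb98, and EC1.3 at 53.0 and 57.7 FPKM.

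The 22 DUF784 loci outside the list had a median of 0.848 FPKM in wild-type, and 10 of them reached 1 FPKM. Of these 10, 6 fell by the same rule. DD11 is named above, and AT5G35405 went from 23.7 FPKM to a listed 0. AT1G47450 went from 43.8 to 9.26 FPKM, AT3G01185 from 43.9 to 5.64 FPKM, AT3G44115 from 24.4 to 2.81 FPKM and AT2G04037 from 19.9 to 1.98 FPKM. The other 4 did not reach the rule, namely AT1G45211 at 5.09 and 1.74 FPKM, AT3G44117 at 13.8 and 4.29 FPKM, AT3G30384 at 1.98 and 0.131 FPKM and AT3G56610. AT3G56610, whose cysteine spacing differs from that of the list, was at 20.9 FPKM in wild-type and 18.5 in myb98, 88.4% of the wild-type level. Its log2 ratio was -0.17, beside a median of 0.53 for genes of like transcript length and level. Over all 53 loci, 40 were expressed, 33 fell, 0 rose and 5.82% of the summed level was left.

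The sequences before the annotated transcript starts were searched on both strands for the core TAAC and for the longer string GTAACNT, which contains it. A string of intermediate length, GTAAC, was added after the upstream sequences had been seen. The 140 bases before the transcript start are printed for 6 genes, chosen as the highest gene of the list, 1 gene of each longer form, the near-identical pair with unlike levels in myb98, and 1 gene of the tandem row on chromosome 1. Matches of GTAAC are in capitals on either strand, so that those on the opposite strand read GTTAC.
AT5G42567, chr5:17018467-17018606, minus strand: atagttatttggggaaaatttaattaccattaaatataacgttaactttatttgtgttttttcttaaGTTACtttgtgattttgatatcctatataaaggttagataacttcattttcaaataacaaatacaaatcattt
AT1G47470, chr1:17415151-17415290, minus strand: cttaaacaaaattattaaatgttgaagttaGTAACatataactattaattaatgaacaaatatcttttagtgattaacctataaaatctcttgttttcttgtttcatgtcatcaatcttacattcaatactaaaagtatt
AT2G21727, chr2:9279081-9279220, minus strand: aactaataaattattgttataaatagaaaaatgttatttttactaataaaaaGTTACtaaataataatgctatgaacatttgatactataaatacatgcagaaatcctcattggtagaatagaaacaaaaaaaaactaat
AT1G57775, chr1:21400151-21400290, minus strand: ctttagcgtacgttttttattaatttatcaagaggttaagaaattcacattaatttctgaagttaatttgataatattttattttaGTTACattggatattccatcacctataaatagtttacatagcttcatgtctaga
AT1G57777, chr1:21401799-21401938, minus strand: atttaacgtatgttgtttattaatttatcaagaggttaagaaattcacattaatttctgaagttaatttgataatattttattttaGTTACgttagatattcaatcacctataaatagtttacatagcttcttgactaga
AT1G45223, chr1:17141052-17141191, plus strand: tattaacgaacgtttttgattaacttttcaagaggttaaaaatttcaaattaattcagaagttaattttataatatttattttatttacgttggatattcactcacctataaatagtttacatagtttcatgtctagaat
All but the last hold 1 match. AT1G57775 and AT1G57777 hold it at the same distance, 54 bases before the start. In myb98 the first was listed at 0 and the second kept 9.87%, and summed the pair kept 7.33%.

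From 250 bases before to 50 bases after the start, TAAC was present in 100% of the 31 genes and in 91.9% of 32809 genes. GTAACNT was present in 17 of 31, or 54.8%, beside 12.9% of all genes and 59.1% of the 22 DUF784 loci outside the list. GTAAC was present in 25 of 31, or 80.65%, beside 36.6% of all genes and 81.8% of those 22 loci. In this window neither string was thus more common in the list than in the rest of the family. By subgroup, GTAACNT was found in 9 of 9 shorter-form genes on chromosomes 3 and 5, in 7 of 7 genes of the form with 18 residues before the pair, in 1 of 5 of the form with 17, and in 0 of 8 shorter-form genes on chromosomes 1 and 4. In the 500 bases before the start codon the same counts were 9 of 9, 7 of 7, 1 of 5 and 3 of 8. Over these 29 genes the share was 68.97%, beside 19.1% of 26686 genes and 50% of 12 DUF784 loci outside the list. The list is richer in A and T, at 77.0% of the 500 bases before the start codon, beside 66.8% for all genes. The genes are copies of each other by duplication, so their matches are not independent. A match is a string of letters and not a binding site.

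**Figure D5:**
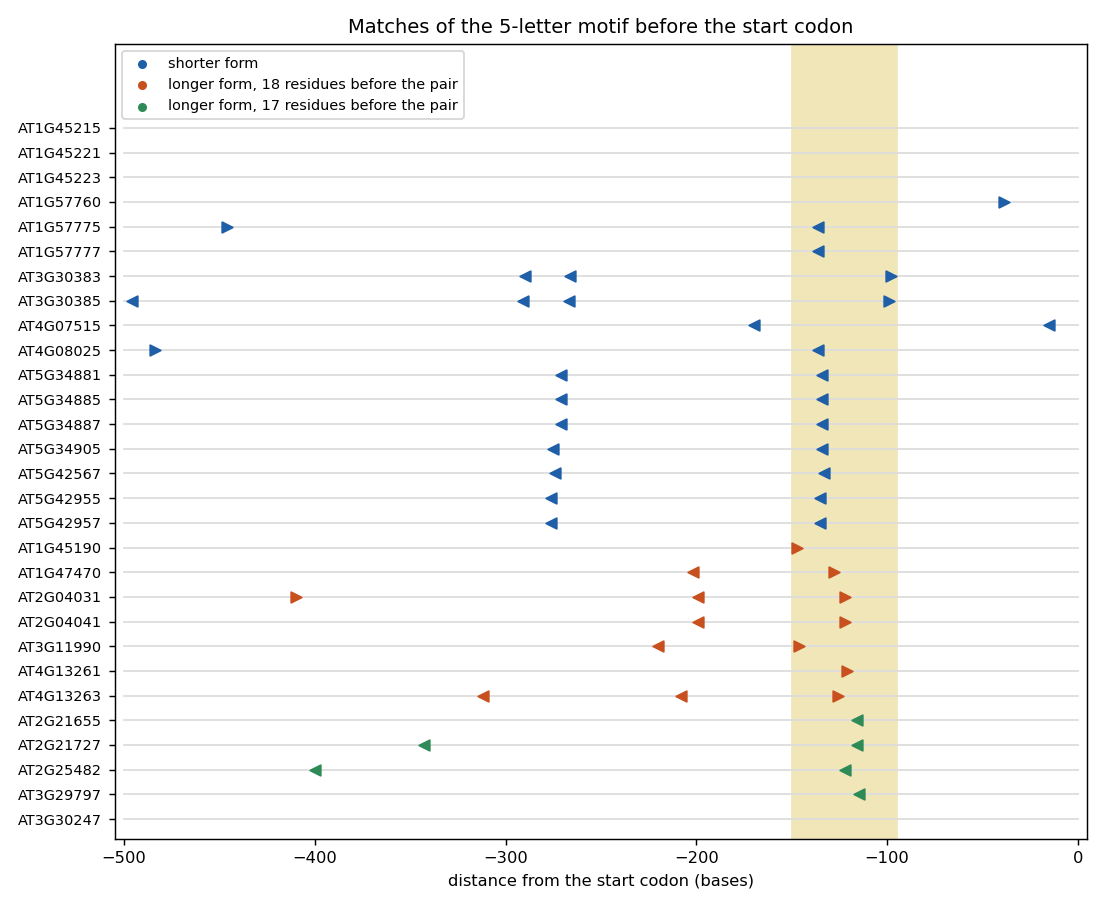
Matches of GTAAC (arrowheads, pointing right when on the strand of the gene and left when on the other) in the 500 bases before the start codon of the 29 protein-coding genes, coloured by protein form. The shaded band runs from 150 to 95 bases before the start codon and holds a match in 23 genes.

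The GTAAC matches were placed alike from gene to gene. In 23 genes a match lay 98 to 147 bases before the start codon, on the strand of the gene in 9 and on the other strand in 14. A window from 160 to 101 bases before the start codon was set after the matches had been seen. In it 72.4% of 29 listed genes held a match, beside 7.85% of 26686 genes and 50% of 12 DUF784 loci outside the list. Of the 23 expressed genes with a match in the 140 bases before the transcript start, 18 kept 2% or less of their level and 4 kept over 8%. Of the 7 genes without one, 2 kept 2% or less and 5 kept over 8%. The tandem row of AT1G45215 to AT1G45227 supplies 5 of those 7 genes, and summed as near-identical copies these 5 kept 8.46%. GTAAC was chosen after the sequences had been seen, the list was drawn up with the levels known, and copies are not independent. Nothing is therefore read from this split, and a link between a match and the share left was not tested.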

How the data were processed

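The deposited table holds FPKM per gene for 1 library of each genotype, made by the authors with TopHat2 2.0.14 and Cuffdiff 2.2.1 on TAIR10, per the submitters' processing notes; the unit FPKM was read from these tools and the values. How multi-mapped reads were treated is not given in the sources used here. No counts were at hand. The worth of 1 fragment was read from the lowest values of transcripts of 1500 bases or more, which gave 0.0206 FPKM in wild-type and 0.0237 in myb98 for a transcript of 1 kb, and fragment numbers per gene are upper estimates. Ratios used a pseudocount of 1 FPKM, genes counted as expressed at 1 FPKM or more in either library, and calls needed a log2 ratio of at least 2 in either direction. No test, SE or p-value was possible. The list and the marker lists were chosen with earlier results of these data known. Gene names, transcripts, domains and sequences came from RefSeq on TAIR10.1, which matched 32810 of the 33557 identifiers; proteins were translated from it. All listed genes are accounted for, with full values for those at 10 FPKM or more or listed at 0. The steps were tested on simulated data. That test showed the correction for transcript length to be too small for well expressed genes, and like-length genes were therefore also matched on lying above or below 10 FPKM. Python 3.11.15, pandas 2.3.3, numpy 2.4.6 and Biopython 1.88 were used.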

Additional observations from a re-analysis of the deposited data

How the results depend on the processing

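No paired analysis was possible because there is 1 library per genotype, and for the same reason no library could be left out. The count that fell, 27 of 30, ran from 21 to 30 over pseudocounts of 5 and 0.1, other scalings, minimums and size rules. It was 19 of 20 with near-identical listed genes summed. Over every DUF784 locus, an alternative chosen after seeing the data, it was 33 of 40. No result changed direction. The median log2 ratio was -6.17 with a pseudocount of 0.1, -2.78 with 5, -4.61 relative to genes of like transcript length and level, -3.63 without a minimum, -4.60 with a minimum of 5 FPKM and -3.28 over every DUF784 locus. The share of summed FPKM left was 4.00% without AT5G42567, 3.49% for protein-coding genes, 3.60% after median scaling and 5.82% over every DUF784 locus. All listed loci carry the DUF784 annotation, so the planned restriction to annotated loci was run as protein-coding genes. The motif share was 80.65% for GTAAC and 68.97% for GTAACNT in 500 bases before the start codon, both chosen after seeing the data. The pseudocount and the minimum set the median by construction, and the cause of the other shifts was not tested. Levels of near-identical copies, and values of 1 to 3 fragments in myb98, limit what single genes show. The number of locations was 19 at 10 kb and 13 at 250 kb. With every DUF784 locus counted, chosen after seeing the data, the share left at the location of AT4G08025 was 2.34% in place of 1.404%, and at that of AT3G30383 0.220% in place of a listed 0.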
